A study of Mus musculus with 2 samples.

Results

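The genes described here are Trp53, which encodes the transcription factor p53, and 9 of its target genes that do not belong to the BCL2 family: Mdm2, Cdkn1a, Phlda3, Zmat3, Ccng1, Trp53inp1, Gadd45a, Perp and Tnfrsf10b. They were taken by name from the probe annotation of the arrays, with every probe of each gene. All 10 genes had a probe and all 10 were measured, by 12 of the 39429 probes, among 14872 measured genes. To count as measured, a gene needed a brightest probe that rose well above background in the WT or the KO channel on array 1, and in that RNA's channel on array 2 too.

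The RNA came from Lamtor1-deficient (KO) and wild-type (WT) CD4+ T cells of C57BL/6J mice. Lamtor1 belongs to the Ragulator complex, by which the kinase complex mTORC1 is held at the lysosome. Naive CD4+CD62L+ T cells had been isolated from spleen with magnets and stimulated through CD3 and CD28 over 5 days in both genotypes. The medium held 50 ng/ml of IL-2 and 1 ng/ml of recombinant human TGFβ. The extraction protocol speaks of naive cells, so the labels do not settle whether the RNA was taken before or after the culture. How Lamtor1 was deleted, in which cells, and how many mice gave each extract are not given in the sources used here. There was 1 RNA extract per genotype, hybridised to 2 Agilent arrays of 2 colours. KO was labelled with Cy5 on array 1 and with Cy3 on array 2, and WT with the other dye. The arrays are therefore 1 replicate and no test was made. Each log2 ratio is given ± the SD between arrays, which holds technical error only. In RNA of whole cell populations, fewer cells of a type and less RNA per cell cannot be told apart.

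p53 is kept at a low level by the ubiquitin ligase Mdm2 and is stabilised mainly at the protein level when DNA is damaged or nutrients and ribosome production fail. It binds DNA as a tetramer, at a pair of decamer half-sites, and switches on genes that halt the cell cycle, repair DNA, restrain growth signals or start cell death. Mdm2 is itself a target, which closes a feedback loop. In T cells p53 is known to restrain proliferation after weak stimulation and to fall when the antigen receptor and IL-2 drive strong division. Because p53 activity is set mostly by protein stability and modification, the level of Trp53 mRNA is not a readout of it.

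Median signals ranged from 68.5 to 76.4 over the 4 channels, against local backgrounds of 38 to 43, and between 43.7% and 51.7% of spots were well above background. The log2 ratios of the arrays, turned to KO over WT, had a Pearson r of 0.939 across measured genes, which are not independent replicates. The median technical SD was 0.105 over all measured genes and 0.176 over the 10 genes, with a highest value of 0.26. Lamtor1 averaged −1.95 ± 0.025, or 3.86-fold lower in KO. Its probe stayed well above background in KO on both arrays. The deleted part of the gene is not known, so this probe does not check the labels.

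A gene was called lower or higher when each array alone showed a difference of 2-fold or more, with the same sign. By this rule of size, 5 of the 10 genes were lower in the KO extract: Phlda3, Cdkn1a, Zmat3, Tnfrsf10b and Ccng1, by 3.36- to 6.73-fold. None was higher, and Trp53 itself was not called. Over all measured genes 6.89% were called lower (1024 genes) and 2.46% higher (366 genes), so that 50% of the 10 genes stood against a background of 6.89%. The 10 genes were chosen with earlier results of these data known, so these shares describe and do not test. The median log2 ratio of the 10 genes was −1.37, −1.498 on array 1 and −1.24 on array 2, beside −0.024 over all measured genes. Values lay below 0 on both arrays for 8 of the 10 genes and for 44.4% of all measured genes. The 5 genes not called were Perp, Trp53inp1, Mdm2, Trp53 and Gadd45a.

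**Figure D1:**
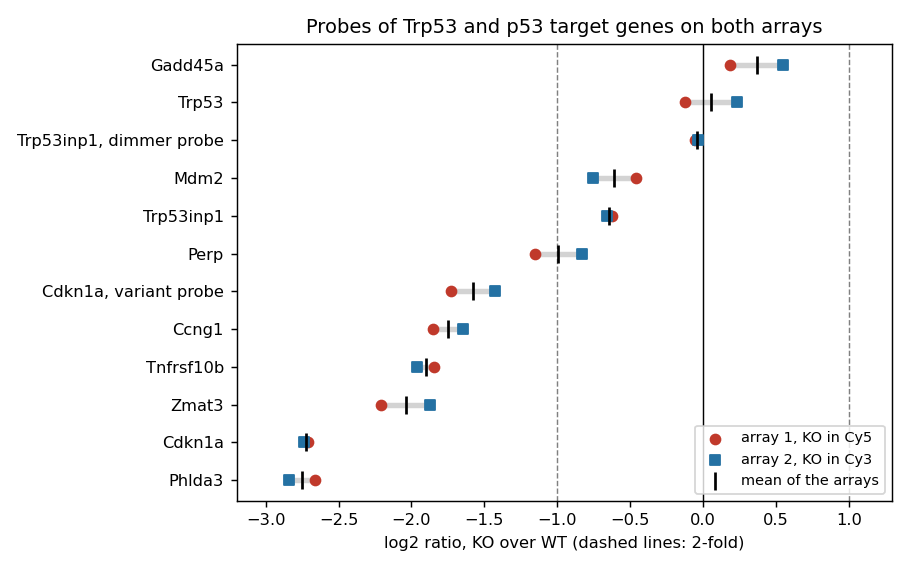
Log2 ratio, KO over WT, of all 12 probes on array 1 (circles, KO in Cy5) and array 2 (squares, KO in Cy3), with a bar at the mean; dashed lines mark 2-fold. The probes run from Phlda3 at −2.75 to Gadd45a at 0.37, and the arrays lie on opposite sides of 0 only for Trp53.

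Trp53 mRNA did not differ in a set direction. Its normalized log2 intensity was 7.37 and 7.05 in the WT extract on arrays 1 and 2, and 7.25 and 7.28 in the KO extract. The ranges of the extracts overlapped. This gave a log2 ratio of −0.12 on array 1 and 0.23 on array 2, with a mean of 0.054 ± 0.25, at the 58.0th percentile of all measured genes. The single probe, for transcript NM_011640, lies at chr11:69404204-69404263 in mouse build mm9, on the plus strand. Its signals before normalization, 112.5 to 160.5 over the 4 channels, were low but well above background in both RNAs on both arrays.

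Mdm2, the ubiquitin ligase that marks p53 for degradation, was 1.52-fold lower in KO and stayed inside the 2-fold limit on both arrays. The probe read a log2 intensity of 12.22 and 12.23 in WT, and 11.76 and 11.48 in KO, so both KO values lay below both WT values. Log2 ratios, KO over WT, were −0.46 on array 1 and −0.75 on array 2, with a mean of −0.61 ± 0.21, at the 15.1st percentile. The probe lies at chr10:117126010-117126069 (mm9, minus strand). The close relative Mdm4, which also binds p53, stood at −0.23 ± 0.23.

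Cdkn1a and Ccng1 act on the cell cycle and were both called lower. Cdkn1a encodes p21, an inhibitor of cyclin-dependent kinases and the main means by which p53 arrests cells. It had 2 probes on the arrays, whose first 30 of 60 bases are shown to tell them apart, in lower case throughout since no element is marked.
Cdkn1a probe for both transcripts (chr17:29237377-29237436, mm9, plus strand): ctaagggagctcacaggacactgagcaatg
Cdkn1a probe for the variant NM_001111099 (chr17:29227986-29228045, mm9, plus strand): aatggagacagagaccccagataattaagg
The first is annotated to both NM_007669 and NM_001111099 and stood for the gene, and the second, which starts 9.39 kb upstream, is annotated to the variant alone.

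With the first probe, Cdkn1a had a log2 intensity of 10.75 and 10.73 in WT, and 8.04 and 7.995 in KO. The extracts lay far apart and each was nearly the same on both arrays. The log2 ratio was −2.71 on array 1 and −2.74 on array 2, with a mean of −2.72 ± 0.017, or 6.61-fold lower. This was rank 30 from the lowest of 14872 measured genes. The probe was spotted 10 times, and its 10 usable spots on array 1 ranged from −2.81 to −2.62 (SD 0.069) and its 8 on array 2 from −2.80 to −2.68 (SD 0.042). The spread over spots was thus small beside the difference between the extracts.

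The probe of the Cdkn1a variant was also called lower, with a smaller difference. Its log2 intensity was 8.19 and 8.14 in WT, and 6.46 and 6.71 in KO, where it was well above background on 1 of 2 arrays. This gave a log2 ratio of −1.73 and −1.43, with a mean of −1.58 ± 0.21, or 2.98-fold lower. The gap of 1.15 between the means of the 2 probes depended on the background correction. With the scanner software's processed signals the variant probe averaged −3.13 and the first probe −3.07. With a normexp offset of 1 they averaged −2.46 and −3.02. Whether the transcripts differed in their change was therefore not shown.

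Ccng1 encodes cyclin G1, which brings the phosphatase PP2A to Mdm2. The probe read a log2 intensity of 10.43 and 10.48 in WT, and 8.58 and 8.83 in KO. Both KO values lay well below both WT values. Log2 ratios, KO over WT, were −1.85 and −1.65, with a mean of −1.75 ± 0.15, or 3.36-fold lower, at the 2.46th percentile. The probe lies at chr11:40562427-40562486 (mm9, minus strand).

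Gadd45a, a stress sensor that promotes arrest in G2 and DNA repair, was not called and had the highest ratio of the 10 genes. Its log2 intensity was 7.33 and 7.01 in WT, and 7.52 and 7.56 in KO. The KO values lay above the WT values, by less on array 1 than the WT values differed between arrays. The log2 ratio was 0.18 and 0.55, with a mean of 0.37 ± 0.26, or 1.29-fold higher, at the 81.9th percentile. The probe lies at chr6:66985376-66985435 (mm9, minus strand). Its signals before normalization were also low, at 133 to 180.1, and well above background in both RNAs.

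**Figure D2:**
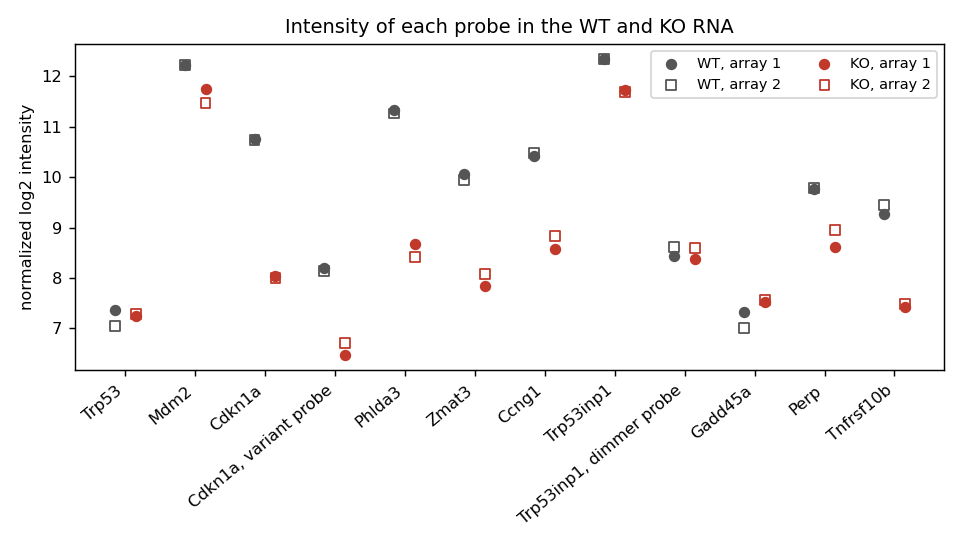
Normalized log2 intensity of each probe in the WT (grey) and KO (red) extracts on array 1 (filled circles) and array 2 (open squares). The WT and KO values of Cdkn1a, Phlda3, Zmat3, Ccng1 and Tnfrsf10b lie well apart, those of Trp53 overlap, and levels of different probes cannot be set against each other.

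The upstream sequences of Cdkn1a and Ccng1 are shown because both genes were called lower and both held a near match to the p53 consensus element. The element is a pair of decamer half-sites with no spacer, 20 letters in all, and it reads the same on both strands. It was searched in RefSeq promoter windows of GRCm38.p6, from 250 bases before to 50 bases after each annotated start. Capitals mark the match, and each sequence ends at the start of the gene's outermost annotated transcript.
Cdkn1a (chr17:29090729-29090978, GRCm38.p6, plus strand): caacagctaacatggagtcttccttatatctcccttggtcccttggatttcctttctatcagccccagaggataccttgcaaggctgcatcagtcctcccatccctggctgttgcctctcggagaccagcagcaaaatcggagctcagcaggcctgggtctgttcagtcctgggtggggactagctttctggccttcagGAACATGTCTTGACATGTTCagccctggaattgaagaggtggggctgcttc
Ccng1 (chr11:40755310-40755536, GRCm38.p6, minus strand): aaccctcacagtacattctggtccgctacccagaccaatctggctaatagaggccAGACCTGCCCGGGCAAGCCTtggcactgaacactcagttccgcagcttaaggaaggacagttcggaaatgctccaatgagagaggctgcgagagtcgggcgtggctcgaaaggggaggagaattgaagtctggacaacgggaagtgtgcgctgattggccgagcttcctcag
Both elements matched 19 of 20 letters. Cdkn1a had 2 windows, and its element lies in the upstream one (chr17:29090729-29091028), beginning 51 bases upstream of that window's start site. The other Cdkn1a window (chr17:29093519-29093818) had a best match of 15 letters. In Ccng1 the element begins 195 bases upstream of the window's start site. The Ccng1 sequence shown ends before that site, 152 bases after the element.

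The RefSeq table held 7 windows for 6 of the 10 genes: Cdkn1a with 2, and Ccng1, Mdm2, Gadd45a, Phlda3 and Trp53 with 1 each. A match of at least 19 letters was found in 2 of these 7 windows and in 29 of 32851 windows over all genes (0.0883%). An exact half-site was found in 5 of the 7 and in 8.36% of all windows. Apart from Trp53, the genes were chosen as known p53 targets, so these shares describe and do not test. The best match was 17 of 20 letters in Gadd45a and Trp53, and 15 in Mdm2, Phlda3 and the second Cdkn1a window. Phlda3, with the lowest ratio of the 10 genes, thus had no near match in its window, and a window without one says nothing of sites elsewhere. These matches describe letters, and no binding of p53 was measured.

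Phlda3, Zmat3, Trp53inp1, Perp and Tnfrsf10b act on survival, death or the handling of RNA. Phlda3 encodes a small protein with a PH domain that competes with the kinase Akt for membrane lipids and so restrains Akt. The probe read a log2 intensity of 11.34 and 11.26 in WT, and 8.68 and 8.42 in KO. The extracts lay far apart on both arrays. This gave a log2 ratio of −2.66 and −2.84, with a mean of −2.75 ± 0.13, or 6.73-fold lower, rank 28 from the lowest of all measured genes. Its probe lies at chr1:137665642-137665701 (mm9, plus strand).

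Zmat3 encodes a zinc finger protein that binds RNA. Its log2 intensity was 10.06 and 9.94 in WT, and 7.85 and 8.07 in KO. Both KO values were well below both WT values. Log2 ratios, KO over WT, were −2.21 and −1.87, with a mean of −2.04 ± 0.24, or 4.11-fold lower, at the 1.12th percentile. The probe lies at chr3:32233831-32233890 (mm9, minus strand).

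Tnfrsf10b encodes the mouse death receptor for the ligand TRAIL. The probe read a log2 intensity of 9.27 and 9.44 in WT, and 7.42 and 7.48 in KO. The extracts did not overlap. The log2 ratio was −1.84 and −1.96, with a mean of −1.90 ± 0.08, or 3.73-fold lower, at the 1.65th percentile. The probe lies at chr14:70184141-70184200 (mm9, plus strand).

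Perp encodes a membrane protein of desmosomes that takes part in p53-dependent death. It was 2-fold lower on array 1 and not on array 2, so it was not called. Its log2 intensity was 9.76 and 9.78 in WT, and 8.61 and 8.95 in KO. Both KO values lay below both WT values. This gave a log2 ratio of −1.15 and −0.83, with a mean of −0.99 ± 0.23, or 1.99-fold lower, at the 7.95th percentile. The probe lies at chr10:18576697-18576756 (mm9, plus strand).

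Trp53inp1 encodes a nuclear stress protein that promotes phosphorylation of p53 and takes part in autophagy. It was not called by either of its 2 probes, both annotated to NM_021897, which start 8.64 kb apart. Their first 30 bases are shown because the probes gave different ratios.
Trp53inp1 brighter probe (chr4:11101174-11101233, mm9, plus strand): gtgtgtttatgggcacaatgttttctctca
Trp53inp1 dimmer probe (chr4:11092530-11092589, mm9, plus strand): aactcctgtcctggtctcagtgaggcgagt
With the brighter probe the log2 intensity was 12.35 on both arrays in WT, and 11.72 and 11.69 in KO, giving log2 ratios of −0.63 and −0.66 and a mean of −0.64 ± 0.022, or 1.56-fold lower. With the dimmer probe it was 8.44 and 8.62 in WT, and 8.38 and 8.59 in KO, giving −0.054 and −0.033 and a mean of −0.044 ± 0.015. The extracts were apart with the first probe and overlapped with the second. The gap of 0.60 between the probes was larger than the technical SD of either, and with the processed signals the means were −0.58 and 0.11.

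**Figure D3:**
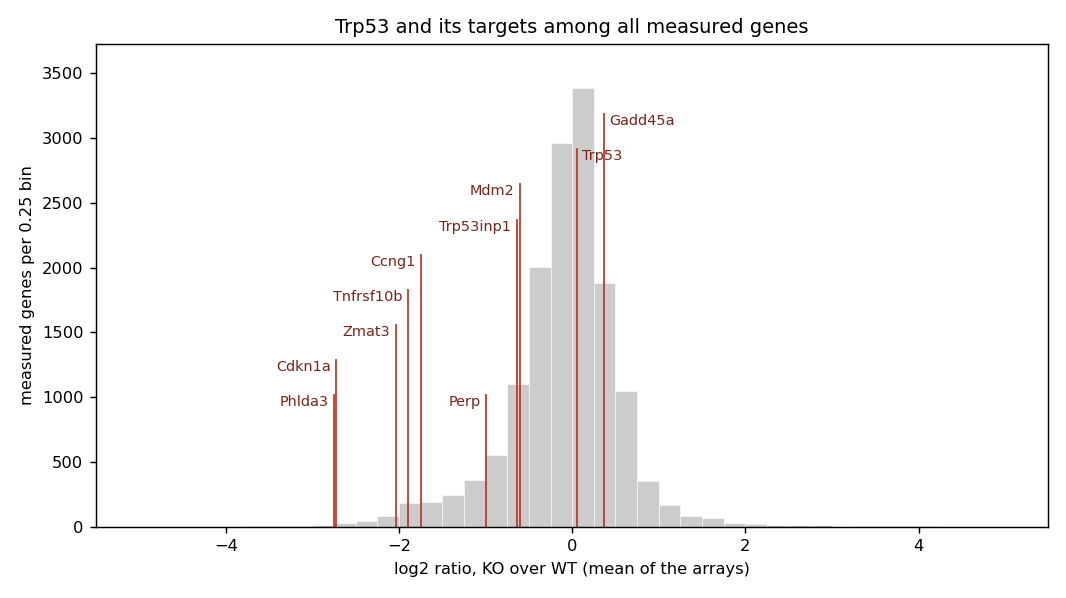
Number of measured genes (grey bars, bins of 0.25) by log2 ratio, KO over WT, mean of the arrays, with a red line for each of the 10 genes; the heights of the lines only separate the names. Phlda3 and Cdkn1a stand at ranks 28 and 30 from the lowest of 14872 genes, Mdm2 and Trp53inp1 on the lower flank, and Trp53 at the 58.0th percentile.

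In order from the lowest ratio, Phlda3 and Cdkn1a differed by less than the technical SD of Phlda3. Zmat3 differed from Tnfrsf10b, and Trp53inp1 from Mdm2, by less than the larger SD of the pair. Tnfrsf10b and Ccng1 were 0.15 apart, about the SD of Ccng1. Gaps wider than the SDs lay between Cdkn1a and Zmat3, between Ccng1 and Perp, between Perp and Trp53inp1, between Mdm2 and Trp53, and between Trp53 and Gadd45a.

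The other genes of the pathway were taken from lists by role. Among regulators of p53, 0 of 21 measured genes (of 23 listed) were called in either direction. Over all measured genes 6.89% were called lower and 2.46% higher, so few calls would fall in a list of 21. The median was 0.032. Values ranged from −0.51 for Chek2, a kinase that activates p53 after DNA breaks, to 0.49 for Crebbp, a coactivator that acetylates it. The kinase gene Atm stood at −0.0031 ± 0.15. Ppm1d, a phosphatase that switches the response off and is itself a p53 target, stood at −0.35 ± 0.028.

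Of 12 measured further targets in arrest and growth (of 16 listed), 7 were called lower and 0 higher, with a median of −1.63. The median was −0.68 with no filter on dim probes. The lowest were Psrc1, a microtubule-binding protein of the spindle (−2.25 ± 0.17), Sesn2, a leucine-binding inhibitor of mTORC1 (−1.99 ± 0.08), Gtse1, a mitotic protein that moves p53 out of the nucleus (−1.99 ± 0.12), and Ddit4, another inhibitor of mTORC1 (−1.74 ± 0.0022). E2f7, Plk2 and Ckap2 were the other 3. Plk2 was not well above background in KO and was at least 3.18-fold lower there. The paralogs Plk3, at 0.81 ± 0.0086, and Sesn1, at 0.59 ± 0.11, lay on the other side and were not called. As background, Psrc1, Gtse1, Ckap2 and E2f7 also vary with the cell cycle, and Sesn2 and Ddit4 also respond to the stress factors Atf4 and Hif1.

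Of 15 measured targets in death outside the BCL2 family (of 17 listed), 6 were called lower and 0 higher, with a median of −0.85. They included Siva1, a pro-apoptotic protein that binds CD27 (−1.47 ± 0.22), Aen, an exonuclease that degrades DNA in dying cells (−1.45 ± 0.09), Pidd1, the scaffold of the caspase-2 complex (−1.44 ± 0.17), and Fas, the death receptor for Fas ligand (−1.32 ± 0.11). The other 2 were Casp1 and Cyfip2. Apaf1, the core of the apoptosome, stood at −0.85 ± 0.16 and was not called.

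Of 21 measured targets in repair and metabolism (of 23 listed), 9 were called lower and 0 higher, with a median of −0.99. With both RNAs required to be well above background, 6 were called and the median was −0.60. The lowest were Zfp365 (−2.71 ± 0.28, well above background in KO on 1 of 2 arrays), Dcxr, a carbonyl reductase of sugar metabolism (−2.29 ± 0.09), Slc19a2, a thiamine transporter (−2.05 ± 0.05), and the noncoding RNA Pvt1 (−1.60 ± 0.16). The 12 not called included Ddb2 and Xpc, which recognise DNA damage in nucleotide excision repair, at −0.42 ± 0.13 and 0.74 ± 0.22. Counts called lower in the 3 target lists thus lay between 6 of 15 and 7 of 12, beside 6.89% of all measured genes. Each list also held at least 1 gene above 0 on both arrays. In the death list this was Trp53inp2 alone, at 0.63 ± 0.19, which is also a paralog of Trp53inp1. The lists were drawn up with earlier results of these data known, so these shares describe and do not test.

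**Figure D4:**
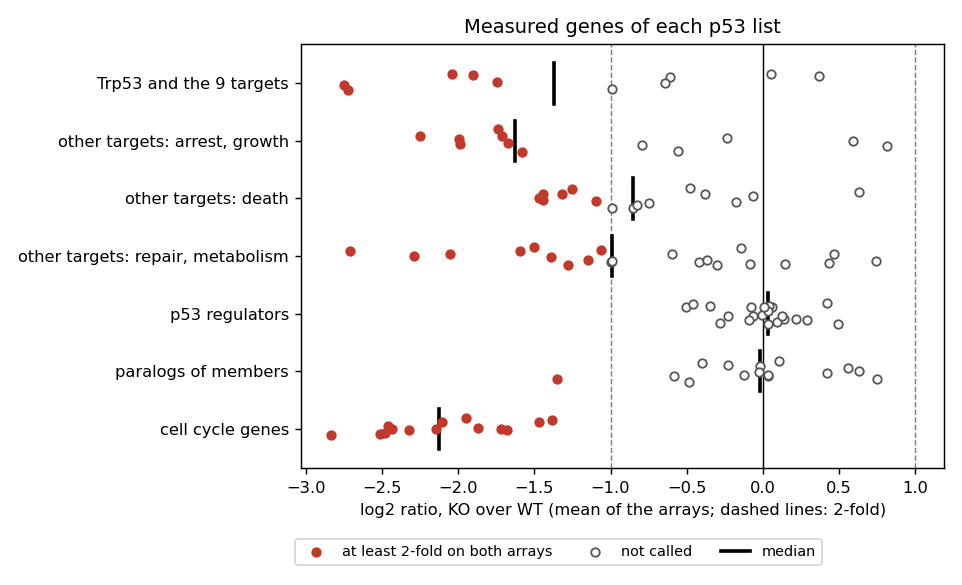
Log2 ratio, KO over WT, mean of the arrays, of each measured gene by list; filled points were at least 2-fold lower on both arrays, open points were not called, and bars are list medians. Called genes fill the left of the 3 lists of further targets and all 14 cell cycle genes, and none stands among the p53 regulators.

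Close paralogs of the genes were set beside them, since they share sequence and often function and are mostly not the standard p53 targets. Of 15 measured paralogs (of 17 listed) 1 was called lower and 0 higher, near the 6.89% called lower over all measured genes, with a median of −0.017. Phlda1 was the called one, at −1.35 ± 0.10, against −2.75 for Phlda3. The CDK inhibitor genes Cdkn1b and Cdkn1c stood at −0.49 ± 0.07 and −0.58 ± 0.0079, against −2.72 for Cdkn1a. Ccng2 stood at −0.017 ± 0.51, with its arrays at 0.34 and −0.38, against −1.75 for Ccng1.

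The remaining paralogs lay on both sides of 0. Gadd45b, at 0.75 ± 0.24, and Gadd45g, at −0.40 ± 0.06, were not called, like Gadd45a. Trp53inp2 stood at 0.63 ± 0.19, and Zmat1, Zmat2 and Zmat5 between −0.023 and 0.11. Tnfrsf22 and Tnfrsf23, decoy receptors for TRAIL, stood at −0.12 ± 0.25 and 0.56 ± 0.15. The p53 family genes Trp63 and Trp73 stood at 0.42 ± 0.10 and 0.032 ± 0.39. Phlda2 and Zmat4 were not measured. Mdm4, Trp63 and Trp73 were also counted among the regulators, and Trp53inp2 among the death targets.

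Genes of the cell cycle that p53 is known to hold down through p21 were lower together with Cdkn1a. All 14 measured genes of the 15 listed were called lower, beside 6.89% of all measured genes, with a median of −2.13. The lowest were Top2a (−2.84 ± 0.06), Mki67 (−2.51 ± 0.029), Ccna2 (−2.48 ± 0.011) and Bub1 (−2.46 ± 0.19). The share of dividing cells was not measured, and its part in the ratios of the p53 targets was not tested. Among targets in the BCL2 family, Bbc3 stood at −2.05 ± 0.28 and Pmaip1 at −1.11 ± 0.06, both called lower. Bax, at −1.37 and −0.93 on the arrays, and Bcl2, at −0.10 ± 0.10, were not called.

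Markers of cell types differed between the extracts as well. Their counts stand beside 6.89% called lower and 2.46% called higher over all measured genes. All 8 T cell markers were well above background in both extracts, with a median of −0.64. Of these, 2 were called lower (Cd4 at −1.18 and Trat1 at −2.69, and 1 with the median over probes). Cd2, Cd3d and Cd3g were below 0 on both arrays without being called, at −0.895, −0.79 and −0.49. Cd3e, Cd28 and Lat stood at 0.09, 0.043 and 0.053. The summed intensity of the list in KO was 0.675 and 0.651 of that in WT on the 2 arrays. Cd2 and Cd3d, the brightest genes of the list, weigh most in this sum. Of 10 CD8 T and NK cell markers, 8 were well above background on both arrays in KO and 5 in WT, and 5 were called higher. They were Klrc1 and Klrd1, at 1.80 and 1.78, and Tyrobp, Klra8 and Klrb1c, whose WT signal was not well above background and which were at least 4.30-, 2.26- and 2.18-fold higher in KO. The CD8 genes were not called, Cd8a at 0.67 and Cd8b1 at −0.55. The summed intensity of the list was 2.09 and 2.18 times that in WT. Its brightest gene, Nkg7, weighs most in this sum and stood at 1.04 ± 0.08, not called. Of 9 myeloid markers, 7 were well above background in KO and 2 in WT, and 3 were called higher. These were S100a9 (3.96, well above background in WT on 1 of 2 arrays) and S100a8 and Lyz1, whose WT signal was not well above background and which were at least 4.92- and 2.97-fold higher in KO. The summed intensity of the myeloid list was 1.91 and 1.76 times that in WT. This sum mostly follows its brightest gene, Itgam, which stood at 0.70 ± 0.07 and was not called. With both RNAs required to be well above background, the calls fell from 5 to 2 in the CD8 T and NK list and from 3 to 0 in the myeloid list. The part of cell makeup in the ratios of the p53 targets was not tested.

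The values of the 10 genes moved with the processing, and the same 5 genes were called lower under all 11 alternatives. Most alternatives could not have removed these calls. Genes 2-fold lower on both arrays stay called on single arrays and under the 1.5-fold rule. The filters on dim probes and the median over probes could not remove them either, and series matrix values repeat the processed signals. Only the changes of background correction or centring could have done so. Centring each array on its median in place of the loess fit moved the median of all measured genes from −0.024 to −0.37. It changed the split of called genes from 26.3% to 11.2% higher. Relative to that median, Phlda3 then stood at −2.89, Cdkn1a at −2.82, Mdm2 at −0.83, Trp53 at 0.29 and Gadd45a at 0.58. Under this centring the median of the regulator list passed below 0, to −0.27, and that of the paralog list moved from −0.017 to −0.27, both above the median of all measured genes.

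**Figure D5:**
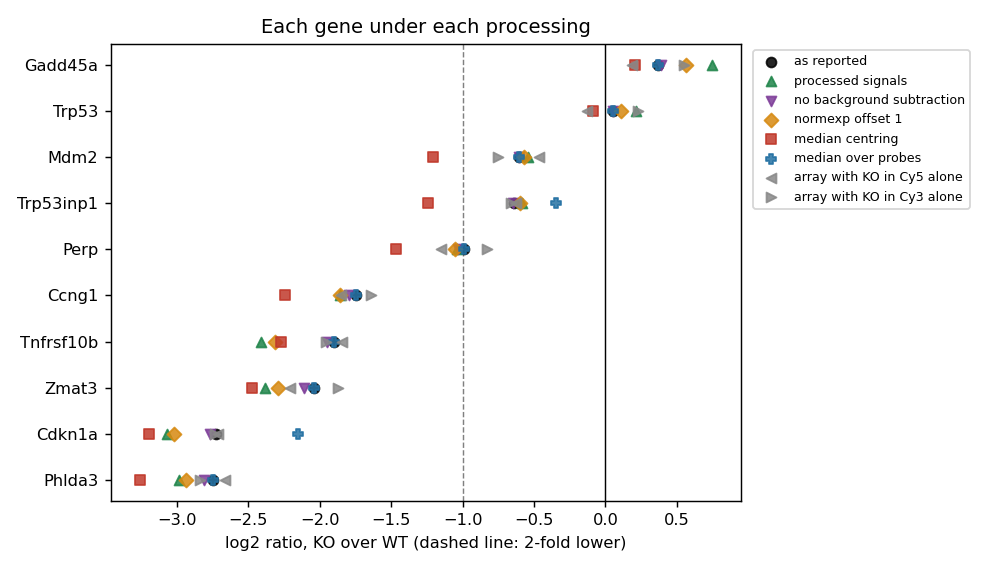
Log2 ratio, KO over WT, of each gene as reported and under 7 other ways of processing. The 5 called genes lie left of the dashed 2-fold line under each way shown, Trp53 stays near 0 on either side, and Gadd45a stays above 0.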

How the data were processed

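The members, gene lists and alternatives were chosen with earlier results of these data known. Mean spot intensities and local backgrounds stand in the scanner files the authors deposited, written by Agilent Feature Extraction 10.7.3.1 per the file headers, or 10.5.1.1 per the submitters' processing notes. The deposited series matrix holds log10 ratios, Cy5 over Cy3, equal to the scanner software's own. Intensities were corrected by limma 3.58.1 (R 4.3.3) with normexp at an offset of 50, then by loess within each array. Control spots (1377) and outlier spots (206 and 214) had no weight in loess and were left out. Spots were averaged per probe, and log2 ratios were turned to KO over WT. The steps were tested on simulated data.

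Accessions were matched to the GRCm38.p6 gene table for names, and the brightest probe stood for a gene. Probe positions are in mm9, per the file headers; exons and UTRs at the probes were not determined, and cross-hybridisation was not checked. An offset of 50 shrinks ratios of dim probes. Genes were named by rule: all 10 members, their measured paralogs, and up to 4 called genes per list and direction with the largest ratios; further list genes were chosen after their values were seen. "At least" folds set the bright extract against the lowest signal well above background, or against the dim extract's own signal where that was higher. Intensities per extract were scaled between arrays with Aquantile. Summed marker intensities are sums of these on the linear scale, so the brightest probes weigh most. A list of B cell markers is not reported here.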

Additional observations from a re-analysis of the deposited data

How the results depend on the processing

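No paired analysis was possible because each genotype gave a single RNA extract. Each of the 10 genes kept its direction under all alternatives except Trp53, which ranged from −0.12 to 0.23. The others ranged from −3.26 to −2.66 for Phlda3, −3.198 to −2.15 for Cdkn1a, −2.48 to −1.87 for Zmat3, −2.41 to −1.84 for Tnfrsf10b, −2.25 to −1.65 for Ccng1, −1.46 to −0.83 for Perp, −1.245 to −0.34 for Trp53inp1, −1.20 to −0.46 for Mdm2 and 0.18 to 0.75 for Gadd45a. The count called lower was 5, except 6 on array 1 alone, where Perp was added, and 7 with a 1.5-fold rule, where Perp and Trp53inp1 were added. The median of the 10 genes was −1.855 under median centring.

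Genes called higher numbered 867 with processed signals or series matrix values, 609 with a normexp offset of 1, 111 under median centring, 1008 with the 1.5-fold rule, and 427 to 556 on single arrays. Genes called lower numbered 1613 with processed signals or series matrix values and 2009 with the 1.5-fold rule. The medians of the further targets in arrest and growth, and in repair and metabolism, were −1.27 and −0.735 with the median over probes. The causes were not tested. The dim signals of Trp53, Gadd45a and the Cdkn1a variant probe, and 1 extract per genotype, limit these values.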
